A study of Rattus norvegicus with 8 samples.

Results

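The S100 proteins are small calcium sensors. A typical member pairs with a copy of itself or with a close relative, binds calcium through EF-hand loops, and then grips a target protein inside the cell. Some members are also released and act on receptors such as Tlr4, and S100g instead carries calcium across the absorptive cells of the gut. Here 10 family members were listed by symbol, S100a1, S100a4, S100a6, S100a8, S100a9, S100a10, S100a11, S100a13, S100a16 and S100g, and a member was taken as the locus whose name is exactly that symbol. This found 8 of the 10 among 52753 loci, of which 40072 had at least 1 fragment. S100a1 and S100a4 occur only in loci shared with a neighbour (Chtop,S100a1 and S100a3,S100a4) and are given separately.

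The samples were whole small intestine of Sprague Dawley rats at postnatal day 21, with 4 libraries labelled cystic fibrosis (CF) and 4 labelled wild type (WT). CF is the disease caused by loss of the CFTR anion channel; the labels give neither the CF allele nor the sex or litter. The lumen had been flushed with dithiothreitol in saline before extraction, and stranded mRNA was sequenced. The CF libraries held 18.6 to 20.9 M assigned fragments and the WT libraries 15.3 to 20.8 M. Libraries are numbered 0 to 3 within a group only to name them, and since the labels do not state separate animals, p-values describe the spread between libraries.

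The family was selected on CF and WT levels that were already known, namely those of S100a6, which had passed the test, and of S100a9, which had the larger fold. Fold changes and adjusted p-values of the members are therefore given as a description of these 8 libraries and support nothing further. Levels are in CPM, fragment counts relative to library size after scaling between libraries by TMM. FPKM, the authors' value per transcript length, is used to compare levels between genes. Each log2 fold change sets CF over WT and carries a standard error (SE). A locus was called at an adjusted p of 0.05 in edgeR's robust quasi-likelihood fit, with the Benjamini-Hochberg method over all 16941 tested loci.

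The stretch of 250 bases before the transcription start is shown for 3 members around which the results turn: S100a6 (called), S100a9 (the largest fold of those tested) and S100a11 (the next largest fold among the abundant members). They are RefSeq sequences of build GRCr8, printed 5′ to 3′ on the gene's strand, with capitals marking a GC box (GGGCGG) or a TATA box (TATAAA).
S100a6 (chr2:178398287-178398536, + strand): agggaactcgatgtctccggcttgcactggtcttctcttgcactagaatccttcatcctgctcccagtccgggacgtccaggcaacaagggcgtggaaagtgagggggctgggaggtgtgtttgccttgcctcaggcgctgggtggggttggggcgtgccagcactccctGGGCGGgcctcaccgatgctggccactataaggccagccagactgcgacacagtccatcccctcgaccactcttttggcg
S100a11 (chr2:181874882-181875131, + strand): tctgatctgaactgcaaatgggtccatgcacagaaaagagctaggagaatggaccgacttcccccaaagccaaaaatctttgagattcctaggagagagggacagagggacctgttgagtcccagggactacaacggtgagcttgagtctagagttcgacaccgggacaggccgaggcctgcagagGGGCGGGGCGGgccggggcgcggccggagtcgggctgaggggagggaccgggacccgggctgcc
S100a9 (chr2:178490623-178490872, - strand): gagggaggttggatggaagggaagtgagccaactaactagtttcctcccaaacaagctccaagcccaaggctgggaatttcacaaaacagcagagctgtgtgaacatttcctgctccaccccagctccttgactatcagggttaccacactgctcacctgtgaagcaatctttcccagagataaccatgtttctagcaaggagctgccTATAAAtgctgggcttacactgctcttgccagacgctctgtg

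Both strands were searched for these motifs and for an AP-1 site (TGANTCA) and a STAT site (TTCNNNGAA). S100a6 held 1 GC box that began 80 bases before the start, S100a11 held 2 overlapping ones that began 64 and 59 bases before it, and S100a13 held 1 at 82 bases. S100a9 held a TATA box at 42 bases and S100a4 one at 31 bases, and S100a16 held none of the 4 motifs. No AP-1 or STAT letters were in any of the 6 windows that could be matched. Of all 33469 promoters of this length, 30.5% held the GC box, 12.9% the TATA box, 6.34% the AP-1 letters and 7.67% the STAT letters. The entries for S100a6, S100a11, S100a13 and S100a16 had a GC content of 62.4%, 62%, 55.6% and 59.2%, and that for S100a9 one of 50.4%. A match is a description of the letters, not evidence of binding.

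Per transcript length, the most abundant members in CF intestine were S100a10 (952 ± 162 FPKM, mean ± SD of 4 libraries), S100g (937 ± 670), S100a6 (706 ± 184) and S100a11 (544 ± 135), and neighbours in this order overlapped. In WT intestine S100g stood first at 1480 ± 357 FPKM, followed by S100a10 at 622 ± 52, S100a11 at 290 ± 18.5 and S100a6 at 214 ± 35, and no neighbours among these 4 overlapped. S100a16, S100a13, S100a9 and S100a8 took the last 4 places in both groups. S100a16 averaged 77.6 ± 19.9 FPKM in CF and 55 ± 8.74 in WT, and S100a13 31.5 ± 12.9 in CF and 23.2 ± 3.58 in WT. The calgranulin genes were near the bottom of the scale, with S100a9 at 17 ± 21.1 FPKM in CF and 1 ± 0.775 in WT, and S100a8 at 5.94 ± 7.86 in CF and 0.363 ± 0.386 in WT. The 8 members together took 0.108% to 0.146% of all fragments in CF libraries and 0.0999% to 0.116% in WT libraries. Their summed level was 1075 to 1607 CPM in CF and 928 to 1209 CPM in WT, which overlapped. Without S100g, the member with a lower mean in CF, it was 848 to 1337 CPM in CF and 600 to 656 CPM in WT. Both sums include S100a6 and S100a9, on whose levels the family was selected.

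**Figure D1:**
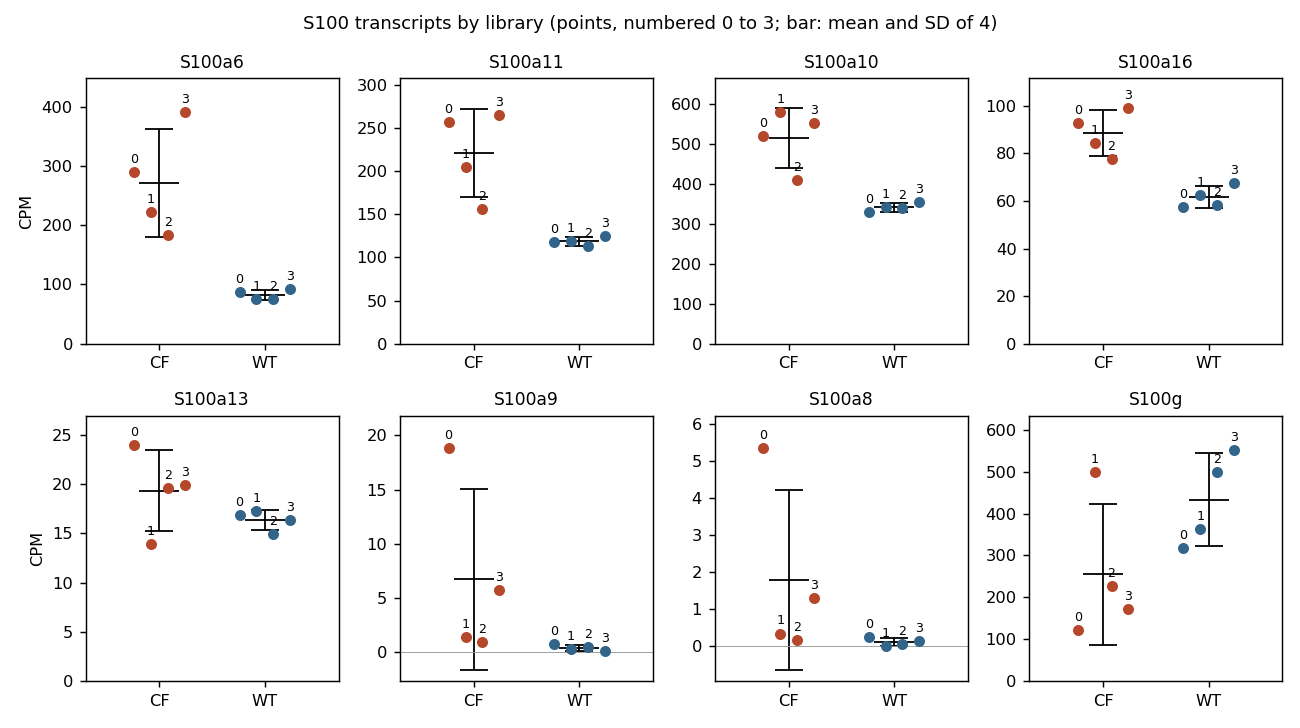
CPM of the 8 members in each library, CF left and WT right, with points numbered by library and a bar for the mean and SD of 4 libraries; each panel has its own linear axis. S100a6, S100a11, S100a10, S100a16 and S100a9 lie above all WT libraries in all 4 CF libraries, while S100a13, S100a8 and S100g overlap.

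Of the 8 members 7 passed the filter on low counts. S100a9 did so through its CF libraries, with 17 to 389 fragments in each, against 1 to 12 in each WT library. S100a6 alone was called higher (0.136% of all tested loci were), and none was called lower (0.0295% of loci). In 5 of the 7, S100a6, S100a9, S100a10, S100a11 and S100a16, every CF library lay above every WT library, which was so in 4.86% of all tested loci. The median log2 fold change of the 7 was 0.60, against -0.00 over all tested loci. With no filter on low counts edgeR called 4 members higher (0.988% of 40061 loci), and DESeq2 called 6 (2.22% of 18265 loci). Since the same contrast chose the family, nothing is read from these counts.

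S100a6, also known as calcyclin, is made by proliferating epithelial and mesenchymal cells and binds the ubiquitin ligase adaptor Cacybp and several annexins. It was at 290, 222, 184 and 392 CPM in CF libraries 0, 1, 2 and 3, against 87.2, 75.8, 75.1 and 92.2 CPM in WT libraries 0 to 3. Every CF library lay above the highest WT library, and the CF values were spread more widely than the WT values. The means were 272 ± 91.2 CPM in CF and 82.6 ± 8.47 CPM in WT (SD, n = 4 each), giving a log2 difference of 1.72 (SE 0.21, edgeR adjusted p = 0.0132), with the p at rank 12 of the fit. Without CF 3, its highest library, the log2 fold change was 1.49 and the call held (adjusted p = 0.0134), and it was lost without WT 1, WT 2 or WT 3 (adjusted p = 0.0923, 0.0818 and 0.0733). On the authors' FPKM values the order of the upper CF libraries turned, with CF 0 at 874 and CF 3 at 856 FPKM, above 563 in CF 1 and 532 in CF 2, against 169 to 247 FPKM in WT.

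S100a11, known as calgizzarin, binds annexins A1 and A2 at membranes. It had 257, 205, 156 and 266 CPM in CF 0 to 3, against 118, 119, 113 and 125 CPM in WT 0 to 3. The WT libraries lay within a narrow band and every CF library above it. The log2 fold change was 0.90 (SE 0.16, adjusted p = 0.0595 by edgeR), past the threshold without CF 0 (log2 fold change 0.82, adjusted p = 0.0494) or CF 2 (log2 fold change 1.04, adjusted p = 0.0119). S100a16, an atypical member widely made in epithelia, had 93, 84.3, 77.8 and 99.3 CPM in CF 0 to 3, against 57.6, 62.7, 58.3 and 67.7 CPM in WT 0 to 3. Every CF library lay above every WT library, and the log2 fold change was 0.52 (SE 0.11, adjusted p = 0.0756). In CPM the CF libraries ranked alike for S100a6, S100a11 and S100a16, with CF 3 first, then CF 0, CF 1 and CF 2. In FPKM this shared order was not kept, with CF 0 first for all 3. At the median locus 1 CPM corresponded to 0.271 FPKM in CF 3, against 0.345 to 0.371 in the other CF libraries and 0.323 to 0.37 in WT libraries, so CF 3 had the lowest conversion of the 8.

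S100a10, or p11, does not need calcium; it forms a tetramer with annexin A2 under the plasma membrane, which holds the scaffold Ahnak and can bind plasminogen. S100a10 had 520, 579, 409 and 553 CPM in CF 0 to 3, against 329, 342, 338 and 355 CPM in WT 0 to 3. The WT values were nearly equal and all CF values were higher. The log2 fold change was 0.60 (SE 0.13, adjusted p = 0.0884), which passed the threshold without CF 2 (log2 fold change 0.69, adjusted p = 0.0458). Anxa2, its partner, had 1579, 1369, 1072 and 1882 CPM in CF 0 to 3, against 821, 793, 745 and 868 CPM in WT 0 to 3, again without overlap (log2 fold change 0.87, SE 0.18, adjusted p = 0.076). Anxa2 ranked the CF libraries as S100a6, S100a11 and S100a16 did in CPM, whereas S100a10 was highest in CF 1. Ahnak had 432, 362, 271 and 644 CPM in CF 0 to 3, against 311, 295, 241 and 170 CPM in WT 0 to 3, and the groups overlapped (log2 fold change 0.75, SE 0.27, adjusted p = 0.249).

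The annexins, calcium-dependent membrane binders many of which pair with an S100 protein, were taken as a list of 12, of which 10 were tested. None was called by edgeR or limma-voom (which called 0.0885% of loci higher). DESeq2 called 3 higher (2.22% of its loci) and edgeR without the filter 4 (0.988%). At an unadjusted p of 0.05, 6 were higher (7.94% of tested loci) and 1 lower (7.21%). In 4 of the 10 all CF libraries lay above all WT libraries (4.86% of tested loci), and the list's median log2 fold change was 0.40. Anxa13, an annexin of intestinal epithelium, had 376, 412, 351 and 365 CPM in CF 0 to 3, against 229, 112, 102 and 172 CPM in WT 0 to 3 (log2 fold change 1.29, SE 0.24, adjusted p = 0.0674). Anxa4, the second most abundant annexin, overlapped between groups, with 583 to 943 CPM in CF and 620 to 837 CPM in WT (log2 fold change 0.14, SE 0.17). Anxa1, an annexin that S100a11 also binds, overlapped too, at 23 to 27.9 CPM in CF and 24.6 to 32.4 CPM in WT (log2 fold change -0.12, SE 0.12). It was named after its values were seen. Some annexins were separated between the groups and others overlapped.

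**Figure D2:**
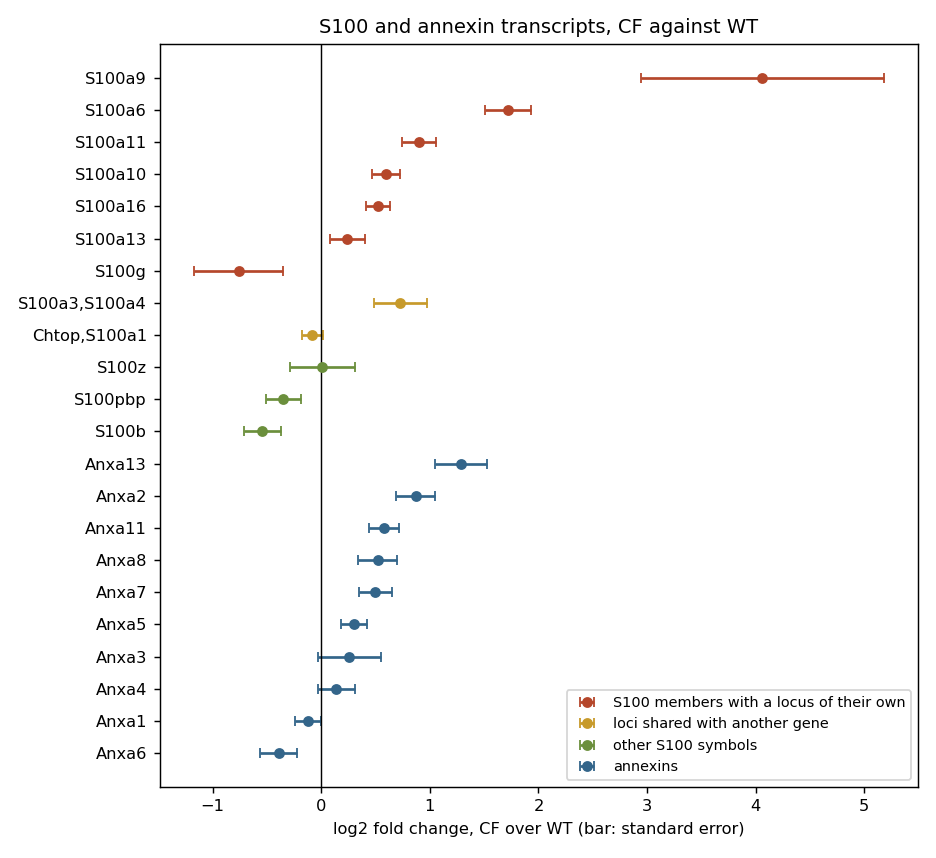
Log2 fold change, CF over WT, with its standard error for the S100 loci and the annexins that passed the filter on low counts. S100a9 lies farthest right with the widest error, S100a6 follows at 1.72, and S100g lies left of 0 at -0.76.

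Of 15 tested intracellular targets of S100 proteins, 11 had a higher mean in CF, as had 8340 of all 16941 tested loci. The summed level of the targets was 2097 to 2540 CPM in CF and 1879 to 2003 CPM in WT, without overlap. Taken singly, 13 of the 15 overlapped. None was called by edgeR, with or without the filter, or by limma-voom, and 1, Nucb1, was called higher by DESeq2 (2.22% of its loci). At an unadjusted p of 0.05, 4 were higher (7.94% of tested loci) and none lower (7.21%). Their median log2 fold change was 0.11. Besides Ahnak the most abundant were the scaffold Iqgap1 at 324 to 359 CPM in CF and 283 to 353 in WT, and the actin cap subunit Capzb at 328 to 389 in CF and 263 to 299 in WT. Capzb did not overlap between groups (log2 fold change 0.32, SE 0.11, adjusted p = 0.21) while Iqgap1 did. Cacybp, the calcyclin-binding protein, had 84.1 to 140 CPM in CF and 77.7 to 97.4 in WT (log2 fold change 0.21, SE 0.16). For the plasmin system, to which S100a10 is tied, 6 genes were tested. None was called by edgeR with or without the filter or by limma-voom, and DESeq2 called 1 higher (2.22% of its loci). At an unadjusted p of 0.05, 2 were higher (7.94% of tested loci) and 2 lower (7.21%). That DESeq2 call was Plaur, the urokinase receptor, with 32.2, 25.9, 16.6 and 44.8 CPM in CF 0 to 3, against 12.7, 10.1, 9.87 and 6.76 CPM in WT 0 to 3 (log2 fold change 1.60, SE 0.30, adjusted p = 0.0689 by edgeR); Plaur and Nucb1 were named after their values were seen. Plg, plasminogen itself and likewise named, lay lower in CF without overlap, with 4.29 to 5.19 CPM in CF and 5.54 to 9.15 CPM in WT (log2 fold change -0.67, SE 0.19, adjusted p = 0.155). The plasminogen activators overlapped, with Plat at 36.6 to 143 in CF and 27.1 to 52.7 in WT, and Plau at 20.9 to 34.5 in CF and 16.7 to 22.6 in WT.

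S100a8 and S100a9 encode the calgranulins, which pair as calprotectin, a zinc and manganese binding complex that fills the cytoplasm of neutrophils and is also induced in stressed epithelium. S100a9 had 18.8, 1.41, 0.905 and 5.73 CPM in CF 0 to 3, against 0.73, 0.251, 0.512 and 0.0683 CPM in WT 0 to 3. All CF libraries lay above all WT libraries, but CF 2 only just. The log2 fold change was 4.06 (SE 1.12, adjusted p = 0.179 by edgeR, 0.01 by DESeq2), and 2.75 without CF 0. S100a8 had 111, 6, 3 and 26 fragments in CF 0 to 3, against 4, 0, 1 and 2 fragments in WT 0 to 3, and did not pass the filter. CF 2 lay inside the WT range for S100a8. DESeq2, whose own filter kept S100a8, called it higher (adjusted p = 0.00706), and edgeR without the filter did not (adjusted p = 0.412). CF 0 and CF 3 together held 92.3% of the 546 S100a9 fragments of the CF group and 93.8% of its 146 S100a8 fragments; the WT group had 29 and 7 fragments of the same genes. S100a9 fragments outnumbered those of S100a8 by 3.5, 4.17, 5.67 and 4.42 times in CF 0 to 3, and WT counts were too low to give a steady ratio.

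Neutrophil markers moved in part with the calgranulins. Of 24 listed markers 23 were found and 9 tested, none was called by edgeR or limma-voom, and 3 of the 9 were higher at an unadjusted p of 0.05 (7.94% of tested loci). DESeq2 called 4 of the 23 higher (2.22% of its loci) and edgeR without the filter 2 (0.988%), and these included markers that did not pass the filter. The no-filter calls were Cd177 and Clec4e, neutrophil surface proteins, with 40 and 23 fragments in all CF libraries together and none in WT. The summed level of the list summed level was 110, 50.9, 62.6 and 67.1 CPM in CF 0 to 3, against 43.2, 57.3, 57.7 and 56 CPM in WT 0 to 3. The granule genes of immature neutrophils were at or near 0: Mpo, Elane, Prtn3 and Ctsg did not pass 0.0532 CPM in any CF library or 0.183 CPM in any WT library. Itgam and Ncf1, the 2 most abundant, which macrophages also express, overlapped between groups at 14.1 to 18.8 CPM in CF and 13.7 to 19.2 in WT for Itgam, and 12.6 to 17 in CF and 11 to 15.8 in WT for Ncf1. Receptors of mature neutrophils, named after their values were seen, ranked CF 0 first and CF 3 second as the calgranulins did. Csf3r had 11.2, 2.37, 2.39 and 5.44 CPM in CF 0 to 3, against 1.52, 0.903, 0.698 and 0.614 CPM in WT 0 to 3. Il1r2 had 13.4, 2.14, 1.49 and 4.84 CPM in CF 0 to 3, against 1.16, 0.953, 1.21 and 0.956 CPM in WT 0 to 3. The part of these cells in the calgranulin values was not tested, and in bulk tissue more or fewer cells of a type cannot be told apart from more or less RNA per cell, here and for every gene below and above.

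**Figure D3:**
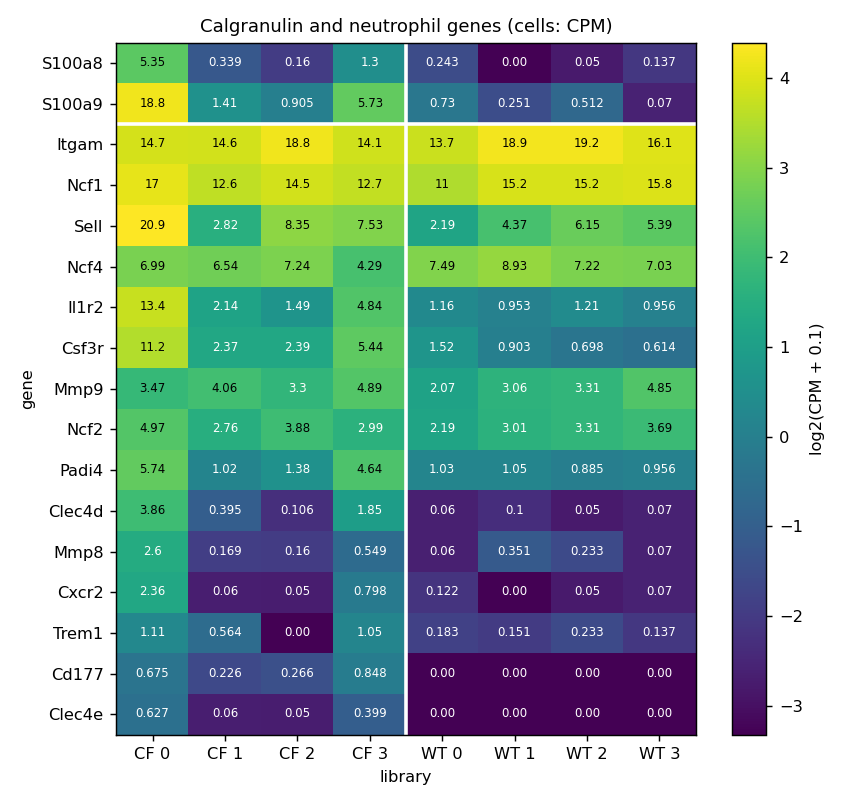
CPM (printed in each cell) and log2(CPM + 0.1) (colour) of S100a8, S100a9 and the neutrophil markers that reached 0.5 CPM in any library, CF libraries left and WT right. Csf3r, Il1r2, Padi4 and Clec4d share with the calgranulins their highest levels in CF 0 and CF 3; Itgam, Ncf1 and Ncf4 do not.

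The receptors of released S100 proteins and their adaptors showed no call. Of 8 listed, 6 were found and tested. No locus was named exactly Ager or Ly96, so these listed genes were not examined. EdgeR with and without the filter, limma-voom and DESeq2 called none of the 6. At an unadjusted p of 0.05, none was higher (7.94% of tested loci) and 2 were lower (7.21%). Over the list the median log2 fold change was 0.21. Bsg (basigin), the most abundant, was at 613 to 805 CPM in CF and 540 to 679 in WT, followed by the adaptor Myd88 at 51.9 to 64.1 in CF and 43.9 to 55.1 in WT; both overlapped. The adhesion receptor Alcam was at 28.4 to 32.9 CPM in CF and 33.6 to 47.2 in WT, with no overlap and CF below (log2 fold change -0.29, SE 0.12, adjusted p = 0.296). Tlr4, the receptor best known for calprotectin, was at 3.05 to 7.53 CPM in CF and 3.82 to 4.72 in WT.

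S100g, or calbindin-D9k, is the vitamin D-induced calcium carrier of duodenal enterocytes, which takes up calcium entering through Trpv6 and delivers it to the basolateral pump Atp2b1. Its mean was lower in CF, while those of the other 7 members were higher. S100g had 122, 500, 227 and 172 CPM in CF 0 to 3, against 318, 363, 499 and 553 CPM in WT 0 to 3. CF 0, CF 2 and CF 3 lay below all WT libraries and CF 1 inside the WT range. The log2 fold change was -0.76 (SE 0.41, adjusted p = 0.426), and -1.32 without CF 1 (adjusted p = 0.1). S100g made up 9.17%, 31.1%, 21.1% and 11.4% of the members' fragments in CF 0 to 3, against 34.3% to 45.8% in the WT libraries. This share also falls where the other members are higher, and they include S100a6, on which the family was selected. CF 1 lay below all WT libraries in the share although its S100g level was inside the WT range.

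The calcium channel gene Trpv6 and the vitamin D receptor gene shared their lowest libraries with S100g. Trpv6 had 8.73, 46.8, 18 and 21.3 CPM in CF 0 to 3, against 7.85, 17.8, 20.5 and 25.8 CPM in WT 0 to 3 (log2 fold change 0.40, SE 0.53). Vdr, the vitamin D receptor, had 86.8, 321, 335 and 195 CPM in CF 0 to 3, against 209, 267, 300 and 413 CPM in WT 0 to 3 (log2 fold change -0.34, SE 0.40). All 3 genes were lowest in CF 0 among CF libraries, and lowest in WT 0 and highest in WT 3 among WT libraries, and both Trpv6 and Vdr overlapped between groups. The sister channel Trpv5, named after its values were seen, was highest in CF 0 and WT 0, with 3.71, 2.09, 1.49 and 0.249 CPM in CF 0 to 3, against 12.1, 0.853, 1.63 and 1.84 CPM in WT 0 to 3 (log2 fold change -1.11, SE 0.97). The sum of 11 enterocyte markers, led by Apoa1 and Apoa4, was 10757, 31755, 22683 and 23566 CPM in CF 0 to 3, against 25547, 20189, 17598 and 30749 CPM in WT 0 to 3. Like S100g it was lowest in CF 0 and highest in CF 1, but CF 2 and CF 3 took the opposite order. In WT both were highest in WT 3, but the sum was lowest in WT 2 and S100g in WT 0. None of the 11 was called by edgeR with or without the filter, limma-voom or DESeq2, or passed an unadjusted p of 0.05. Set against that sum, a ratio chosen after the values were seen, S100g was at 1.14%, 1.58%, 1% and 0.728% in CF 0 to 3, against 1.25%, 1.8%, 2.83% and 1.8% in WT 0 to 3. The ratio overlapped between groups, through CF 1 and WT 0. It cannot separate the share of enterocytes from S100g RNA per cell. The part of the enterocyte share in the S100g values was not tested.

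**Figure D4:**
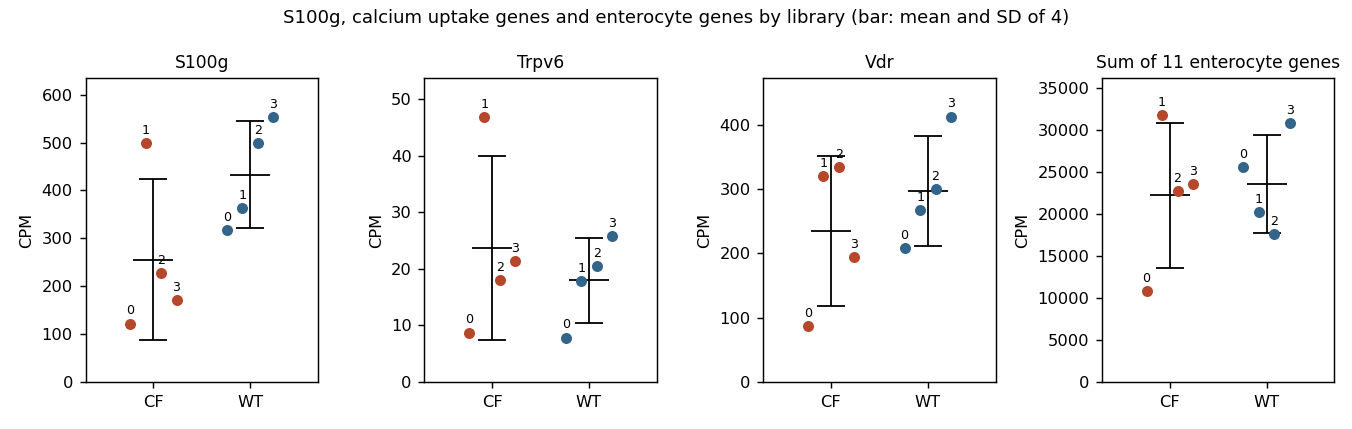
CPM of S100g, Trpv6, Vdr and the sum of 11 enterocyte genes in each library, CF left and WT right, with the mean and SD of 4 libraries. CF 0 is lowest of its group in all 4 panels and CF 1 is highest in all but Vdr.

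Of the 13 tested genes of transcellular calcium transport and its control, edgeR and limma-voom called none. DESeq2 called 1 higher (2.22% of its loci) and edgeR without the filter 1 (0.988%). At an unadjusted p of 0.05, 1 was higher (7.94% of tested loci) and none lower (7.21%). The median log2 fold change of the list was 0.12. Each of those calls was Cldn2, a cation-pore claudin, at 411, 241, 212 and 355 CPM in CF 0 to 3, against 204, 178, 164 and 173 CPM in WT 0 to 3 (log2 fold change 0.76, SE 0.20, adjusted p = 0.138 by edgeR). Cldn15, another cation-pore claudin, overlapped at 254 to 487 CPM in CF and 288 to 405 in WT. The pump gene Atp2b1, named after its values were seen, overlapped at 209 to 325 CPM in CF and 180 to 213 in WT (log2 fold change 0.33, SE 0.15).

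S100a13 takes part in the release of proteins that lack a signal peptide, such as Fgf1 and Il1a. It had 24, 13.9, 19.6 and 19.9 CPM in CF 0 to 3, against 16.9, 17.3, 14.9 and 16.4 CPM in WT 0 to 3. CF 1 was the lowest of the 8 and the other CF libraries the highest, so the groups overlapped (log2 fold change 0.24, SE 0.16, adjusted p = 0.492). Along that release route 5 genes were tested, with a median log2 fold change of -0.23, and edgeR and limma-voom called none. At an unadjusted p of 0.05, 1 was higher (7.94% of tested loci) and 1 lower (7.21%). DESeq2 called 1 higher (2.22% of its loci), as did edgeR without the filter (0.988%). The call was Il1a, named after its values were seen, at 5.01, 1.69, 2.71 and 2.39 CPM in CF 0 to 3, against 1.22, 1.25, 1.12 and 0.683 CPM in WT 0 to 3 (log2 fold change 1.46, SE 0.36, adjusted p = 0.118 by edgeR). Fgf1 was at 33.2 to 50.9 CPM in CF and 42.9 to 47.5 in WT, the protease Casp1 at 168 to 296 in CF and 246 to 308 in WT, and the synaptotagmin Syt1 at 10.2 to 14 in CF and 13.1 to 19.2 in WT, all overlapping.

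S100a4, a motility factor of fibroblasts and immune cells, was counted in a locus with S100a3. That locus had 19.9, 9.7, 9.36 and 13.7 CPM in CF 0 to 3, against 7.18, 7.07, 8.06 and 9.56 CPM in WT 0 to 3. CF 0 and CF 3 were again highest, and CF 2 lay inside the WT range (log2 fold change 0.73, SE 0.24, adjusted p = 0.21). Without the filter on low counts the locus passed the threshold (log2 fold change 0.76, adjusted p = 0.0217 by edgeR). The locus of S100a1, a member best known from heart muscle, with its neighbour Chtop, an mRNA export factor, had 67 to 85 CPM in CF and 72.1 to 84 in WT (log2 fold change -0.08, SE 0.10). How much of either value belongs to the S100 gene cannot be told apart. Among S100 symbols outside the list, S100b, a marker of glia, had 3.91, 4.17, 4.31 and 3.99 CPM in CF 0 to 3, against 7.24, 6.17, 5.82 and 4.64 CPM in WT 0 to 3. CF lay below WT without overlap, as in 3.91% of tested loci (log2 fold change -0.54, SE 0.17, adjusted p = 0.202). The glial marker Sox10, named after its values were seen, overlapped at 3.5 to 5.55 CPM in CF and 3.55 to 5.96 in WT. S100z was at 0.79 to 1.25 CPM in CF and 0.609 to 1.09 in WT (log2 fold change 0.01, SE 0.30), and S100pbp, a binding partner of S100P rather than a family member, at 12.9 to 19.5 in CF and 16.4 to 25.1 in WT (log2 fold change -0.35, SE 0.16). S100a5 and S100a7a had 8 and 3 fragments in all CF libraries together and 4 and 1 in all WT libraries, and S100vp was listed at 0.

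As a wider setting, 26 tested soluble EF-hand proteins outside the family had a median log2 fold change of -0.03. None was called by edgeR or limma-voom. At an unadjusted p of 0.05, 2 were higher (7.94% of tested loci) and none lower (7.21%). DESeq2 called 1 higher (2.22% of its loci), as did edgeR without the filter (0.988%). The call was Efhd2, named after its values were seen, at 326 to 439 CPM in CF and 236 to 298 in WT. The most abundant, Calm3 for calmodulin, the brush border bundler Pls1 and the myosin light chain Myl12b, overlapped between groups. Their log2 fold changes were 0.15 for Calm3 (SE 0.15), -0.22 for Pls1 (SE 0.14) and 0.19 for Myl12b (SE 0.12).

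Other cell types of the tissue express S100 genes too, and their marker lists are given as summed levels. Enterocyte and goblet cell genes were abundant, as above and below, and squamous and gastric genes (led by Atp4a and Krt14), foreign to this tissue, summed to 3.09 to 4.24 CPM in CF and 2.47 to 4.26 in WT. Exocrine pancreas genes (led by Cela1 and Ctrb1) reached 120 CPM in CF 2 and 52.5 CPM in WT 1, against 14.7 to 18.4 CPM in the other libraries. Smooth muscle genes summed to 5146 to 6829 CPM in CF and 3178 to 4741 in WT, without overlap. Of that sum Myh11 took 1665 to 2516 in CF and 1301 to 2102 in WT, and Des 1208 to 1969 in CF and 656 to 887 in WT. Taken singly, 5 of the 7 tested smooth muscle genes overlapped. In the other 2 all CF libraries lay above all WT libraries (4.86% of tested loci). Goblet cell genes (led by Fcgbp and the locus AABR07006030.1) summed to 10296 to 15174 CPM in CF and 6662 to 11709 in WT, which overlapped. That placeholder name was listed beside the mucin gene Muc2, and whether they are the same gene was not checked. In 5 of the 9 tested goblet cell genes all CF libraries lay above all WT libraries (4.86% of tested loci), and the other 4 overlapped. None was called by edgeR or limma-voom. DESeq2 called 5 higher (2.22% of its loci) and edgeR without the filter 4 (0.988%). Fibroblast genes (led by Col1a1 and Dcn) summed to 781 to 1407 CPM in CF and 1152 to 1960 in WT, macrophage genes (Lyz2 and C1qc) to 1074 to 1116 in CF and 1032 to 1797 in WT, and blood vessel genes (Cdh5 and Kdr) to 60.9 to 95.4 in CF and 95.2 to 124 in WT. Crypt genes (Olfm4 and Mki67) summed to 1053 to 1244 CPM in CF and 938 to 1174 in WT, glial genes (Erbb3 and Cryab) to 263 to 361 in CF and 245 to 300 in WT, and dendritic cell genes (Itgax and Flt3) to 20.5 to 29.1 in CF and 26.1 to 32.4 in WT. Mesothelial genes (Cdh2 and Msln) summed to 16.6 to 25.2 CPM in CF and 25.4 to 34 in WT, without overlap and lower in CF. Red cell genes (Hbb and Hba-a2) summed to 90.3 to 127 CPM in CF and 155 to 352 in WT, also without overlap and lower in CF. They held the only marker that edgeR called, Hba-a2, which fell (log2 fold change -1.07, SE 0.16). Of these lists 7 of 9 smooth muscle, 9 of 10 goblet cell, 8 of 10 fibroblast, 13 of 14 macrophage and 4 of 5 vessel genes were found. Their part in the S100 values was not tested.

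The genes most alike to a member were sought by Pearson's r of log2 CPM after subtracting each group's mean, over 8 libraries and 10060 loci, as a description. For S100a6 they were Tfap4 (r = 0.999), Raph1 (0.988), Anxa2 (0.974), Cebpg (0.969) and Ermp1 (0.964). For S100a9 they were Pdzk1ip1 (0.996), Adamts1 (0.988), PVR (0.985), Khsrp (0.979) and Cd276 (0.979). For S100g they were Mlf2 (0.994), Zfp524 (0.988), Mgst2 (0.988), Commd7 (0.978) and Lrrc75a (0.977). These are the highest of 10060 values each, and the points share libraries, depth and scaling. They depended on the libraries used: 1 of the 5 for S100a6 stayed among its 5 most alike without CF 3, and 2 for S100a9 and 3 for S100g without CF 0, with 0 for S100g without CF 1. Tfap4, most alike to S100a6 inside the groups, had no such difference between them, with 16.5 to 21.9 CPM in CF and 19.9 to 21.4 in WT (log2 fold change -0.11, SE 0.11).

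In the genome 7 of the 8 members lie on chromosome 2 (Rnor_6.0), between 189886695 and 193901236, and S100g lies apart on the X chromosome. S100a13, S100a16, S100a6, S100a8 and S100a9 follow each other with gaps of 10.5, 78.4, 64.8 and 23.2 kb. S100a11 and S100a10 lie 23.9 kb from each other and 3763 kb beyond S100a9. The locus of S100a13 has the same deposited span as that of Chtop and S100a1. The locus of S100g spans 33383086 to 33522836 on the X chromosome. Whether fragments of other transcripts are counted in either locus was not tested. The stretch of 4.01 Mb holds 83 loci, 72 with a symbol and 12 of these S100 loci. Of the other 60 loci with a symbol, among them the skin cornification genes Ivl, Flg2 and Sprr1a, 50 had no fragment in any library and only 1, for Crnn, was tested; a second Crnn locus had no fragment. The tested locus of Crnn had 0.675 to 2.08 CPM in CF and 1.3 to 3 in WT (log2 fold change -0.56, SE 0.38). The S100 loci held 96.3% of all fragments of the stretch, and the 7 members 87.7%. S100a13 overlapped between groups while S100a16, 10.5 kb away, did not.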

How the data were processed

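Per the labels' protocols, total RNA came from the entire small intestine in Trizol, and stranded mRNA was sequenced on a HiSeq2500. The submitters' processing notes name bcl2fastq, cutadapt, STAR 2.3.1z, StringTie, Cuffdiff and build Rnor_6.0; how each was set is not given in the sources used here. Estimated counts, in raw fragments per locus, are as the authors deposited them; 5.99% were fractional and all were rounded. The FPKM values were made by the authors with Cuffdiff, which scales by transcript length and between libraries, as the file headers show. The table's other 2 value columns were not used.

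Members and gene lists (7 partner lists, 14 marker lists) were chosen with earlier results of these data known. Loci were kept by edgeR's filterByExpr (minimum count 10, minimum total 15), scaled by TMM and tested by edgeR's robust quasi-likelihood test over 16941 loci, the SE being the log2 fold change divided by the square root of its F. Each list's called members and its 3 most abundant tested members (2 for marker lists) were named by rule; some of these are not reported here. Cacybp, Tlr4, Trpv6, Mpo, Elane, Prtn3, Ctsg, Cd177 and Clec4e were named outside it after their values were seen, as were those so marked in the text. The neutrophil plot shows markers reaching 0.5 CPM. On simulated counts at 16941 loci the test was checked for recovery of known changes. Coordinates of loci are 1-based spans of transcript bundles as deposited. Promoters and motif shares came from RefSeq, build GRCr8, where 6 of the 10 listed members matched by symbol. Alternatives changed the scaling, filter, test, unit, rounding, libraries and block. The tests ran in edgeR 4.0.16, DESeq2 1.42.0 and limma 3.58.1 under R 4.3.3, and tables and plots were made with pandas 2.3.3, numpy 2.4.6 and matplotlib 3.10.9 under Python 3.11.15.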

Additional observations from a re-analysis of the deposited data

Results flagged for a closer look

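In 42 groups of 4 libraries checked for a library that stands apart from the other 3, 2 were found, where chance gives about 2.1, at 1 in 20. S100z was at 1.25 CPM in CF 3, against 0.79 to 0.868 CPM in the other CF libraries, with 25 fragments in CF 3 and 14 to 18 in the others. The summed level of the neutrophil markers was 43.2 CPM in WT 0, against 56 to 57.7 CPM in the other WT libraries.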

How the results depend on the processing

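The number of called loci was 28 in the main fit, 553 without the low-count filter, 566 by DESeq2, 17 by limma-voom and 11 with the library number as a replicate block, and 5 to 136 with 1 library left out. Libraries of the same number in the 2 groups shared little, with correlations of deviations of 0.0651, -0.106, 0.163 and -0.00826 for numbers 0 to 3. The labels do not state pairs, and these values cannot decide whether the numbers mark them. Called members were 1 in the main fit, 4 without the filter, 6 by DESeq2 and 0 to 3 with 1 library left out. Partner lists had 7 calls without the filter, 8 by DESeq2 and 0 to 2 with 1 library left out. Marker lists had 1 in the main fit, 17 without the filter, 19 by DESeq2, 0 by limma-voom, 0 with the replicate block and 0 to 3 with 1 library left out. S100a8 was called by DESeq2. Log2 fold changes that passed elsewhere were those of S100a9 by DESeq2 (4.11), and, without the filter and by DESeq2, S100a10 (0.63, 0.61), S100a11 (0.93, 0.91) and S100a16 (0.56, 0.54). With 1 library left out the log2 fold change of S100a6 ranged from 1.49 to 1.87, S100a9 2.75 to 4.48, S100a10 0.54 to 0.69, S100a11 0.80 to 1.04, S100a13 0.12 to 0.37, S100a16 0.47 to 0.58 and S100g -1.32 to -0.53. The 7 tested members kept their sign in each setting run on them. By Spearman's rho 3, 1 and 1 of the 5 most alike genes of S100a6, S100a9 and S100g stayed, and without 1 CF library 1 to 3 of those of S100a6, 2 to 3 of S100a9 and 0 to 3 of S100g in the cases that moved. No listed member had a second locus under its exact symbol, so summing loci gave no other value. The causes were not tested. Depth limits S100a8 most, whose WT libraries held 0 to 4 fragments.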
